A study of Homo sapiens with 14 samples.

Results

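Messenger RNA of 10 secreted inflammatory proteins was followed across human ovarian cancer cells: the chemokines CXCL1, CXCL2, CXCL3, CXCL8, CXCL10, CCL2, CCL5 and CCL20, and the cytokines IL1A and IL6. The genes were found by Ensembl identifier in the gene count tables, and all 10 were present among 62757 genes. RNA was sequenced from 14 libraries in 7 groups of 2. Among those groups, 3 came from cells labelled OVCAR3-DDP that carried a short hairpin RNA: sh2 and sh1 against ADAR1, an enzyme that edits adenosine to inosine in double-stranded RNA, and shNC, taken here as the hairpin control. The other groups were OVCAR3-DDP and parental OVCAR3 (labelled WT), and A2780-DDP and parental A2780. DDP is an abbreviation of cisplatin, and the DDP cells were the cisplatin-resistant derivatives, so the hairpin cells and their shNC control share that resistance history. No label gives the cisplatin dose, the number of clones, the hairpin vector or whether replicates were separate cultures. The p-values therefore measure the spread between these libraries, which may be technical.

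Chemokines are small secreted proteins that guide leukocytes along concentration gradients through G-protein-coupled receptors. CXCL1, CXCL2, CXCL3 and CXCL8 act on the receptor CXCR2 and draw neutrophils, and CXCL8 also acts on CXCR1. CXCL10 acts on CXCR3 and draws activated T cells and natural killer cells, CCL2 draws monocytes through CCR2, CCL5 draws T cells and monocytes, and CCL20 acts on CCR6. IL1A is an alarm cytokine that signals through the IL-1 receptor, and IL6 signals through IL6ST to STAT3. Many of these genes are induced by NF-kB, with interferon regulatory factors adding to CXCL10 and CCL5, and CXCL8 and IL6 are well known products of ovarian carcinoma cells.

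CXCL8, CXCL1, CXCL3 and CXCL2 lie on chromosome 4 between 73740506 and 74099293 (GRCh38), a span of 358.788 kb that holds 9 protein-coding genes. CXCL10 lies further along the same chromosome, CCL2 and CCL5 on chromosome 17, CCL20 and IL1A on chromosome 2, and IL6 on chromosome 7. The stretches upstream of the RefSeq start (GRCh38.p14, 5′ to 3′ on the gene's strand) are shown for the 8 members with a promoter entry. CXCL1, CXCL2 and CXCL3 among them are near copies. CXCL8, CXCL3, IL6, CCL20 and IL1A rose with the ADAR1 hairpins, CXCL2 and CXCL10 did not pass there and CXCL1 was not tested. Whether any motif bears on this was not tested. Capitals mark the kB-type motif GGNNTTNCC on either strand, the AP-1 motif TGACTCA on either strand in CXCL8 and IL1A, the interferon-response motif (GAAA, any 2 bases, GAAA) in CXCL10 and the C/EBP motif TTGCNNAA in IL6.
CXCL1: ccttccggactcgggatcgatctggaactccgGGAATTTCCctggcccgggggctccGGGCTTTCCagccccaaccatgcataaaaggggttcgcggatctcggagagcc
CXCL2: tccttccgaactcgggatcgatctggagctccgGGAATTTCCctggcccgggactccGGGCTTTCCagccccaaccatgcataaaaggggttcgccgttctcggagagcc
CXCL3: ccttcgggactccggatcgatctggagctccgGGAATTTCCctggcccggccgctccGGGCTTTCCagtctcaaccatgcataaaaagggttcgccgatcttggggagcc
CXCL8: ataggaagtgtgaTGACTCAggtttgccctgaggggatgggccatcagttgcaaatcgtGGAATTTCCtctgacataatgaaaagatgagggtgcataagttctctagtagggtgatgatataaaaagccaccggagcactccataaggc
CXCL10: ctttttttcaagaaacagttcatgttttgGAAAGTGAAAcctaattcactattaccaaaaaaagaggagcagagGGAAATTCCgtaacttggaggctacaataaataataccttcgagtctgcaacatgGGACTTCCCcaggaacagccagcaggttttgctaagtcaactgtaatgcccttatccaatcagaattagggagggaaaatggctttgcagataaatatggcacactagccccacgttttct
IL6: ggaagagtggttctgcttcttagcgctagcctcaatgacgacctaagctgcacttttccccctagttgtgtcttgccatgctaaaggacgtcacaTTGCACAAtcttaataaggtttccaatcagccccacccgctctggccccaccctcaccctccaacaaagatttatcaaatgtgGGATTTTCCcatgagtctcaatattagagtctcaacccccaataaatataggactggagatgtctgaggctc
CCL20: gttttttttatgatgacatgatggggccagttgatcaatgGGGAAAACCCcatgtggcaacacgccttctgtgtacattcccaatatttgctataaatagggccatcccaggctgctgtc
IL1A: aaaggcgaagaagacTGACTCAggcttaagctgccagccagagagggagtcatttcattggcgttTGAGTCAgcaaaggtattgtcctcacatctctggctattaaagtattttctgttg

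RefSeq held a promoter for 8 of the 10 members, and CCL2 and CCL5 had none. CXCL1, CXCL2 and CXCL3 each carried the same pair of kB-type stretches, GGAATTTCC and GGGCTTTCC. Over the 75 bases before the start, compared without gaps, CXCL1 matched CXCL2 at 88.0% of positions and CXCL3 at 89.3%, and CXCL2 matched CXCL3 at 80.0%. A window of 55 bases, chosen after those values were seen because it starts past the spacer between the kB-type stretches, gave 96.4%, 89.1% and 89.1% for the same pairs. CXCL8 held the first of these kB-type stretches 91 bases before its start and the AP-1 motif 137 bases before it. CXCL10 held kB-type matches 176 and 121 bases before its start and the interferon-response motif at 221, and IL6 held a kB-type match at 72 and the C/EBP motif at 155. CCL20 had overlapping kB-type matches on the opposite strand, capitalised as 1 run. IL1A had AP-1 matches and no kB-type match in its 2 listed promoters, of which the one with both AP-1 matches is shown. Of 35116 promoters searched over 250 upstream bases, 15.0% held the kB-type motif, 4.20% the AP-1 motif, 9.05% the C/EBP motif and 3.02% the interferon-response motif. The motif letters were chosen with these sequences in view, and a match is a description of letters, not a binding site. In GENCODE 29 the annotated gene begins upstream of the RefSeq start for CXCL2, CXCL3, CXCL8, IL6, CCL20 and IL1A. The stretch shown lies wholly inside the annotated gene for CXCL3, IL6, CCL20 and IL1A, and in part for CXCL2 and CXCL8.

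The libraries held between 20428538 and 49115255 gene counts, and each level below is in CPM, a count divided by the library total and scaled up alike for all libraries. The libraries labelled OVCAR3-DDP stood apart from the other OVCAR3 groups: of 12 ovarian carcinoma and epithelial markers 4 reached 1 CPM there, against 10 in sh2, sh1, shNC and parental OVCAR3. The summed level of those markers was 539 and 575 CPM in that group, against 5710 and 6046 CPM in shNC and 4905 and 4485 CPM in parental OVCAR3. Both A2780 groups also had 4 of these markers at 1 CPM, with sums of 198 and 205 CPM (parental) and 306 and 278 CPM (A2780-DDP). WT1, from the same list, went the other way: it averaged 19.0 CPM in OVCAR3-DDP and at most 0.168 CPM in every other group. Results for the members and the pathway lists that rest on the libraries labelled OVCAR3-DDP are therefore also given with shNC in their place. The hairpin libraries differed from the others in mitochondrial share, 0.726% to 0.947% of counts against 2.31% to 3.51%, so a comparison of shNC with cells that have no hairpin cannot be told apart from that difference between library sets. Summed leukocyte markers stayed between 0.762 and 10.5 CPM in all libraries, highest in those labelled OVCAR3-DDP, where PTPRC, CD3D, CD3E, MS4A1 and LYZ had no count. In bulk RNA, fewer cells making a transcript and less of it per cell cannot be told apart.

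Per kilobase of exon, CCL5 had the highest level of the 10 genes in parental OVCAR3, in the libraries labelled OVCAR3-DDP and in both A2780 groups, and CXCL8 had the highest in sh2, sh1 and shNC. The top level was 58.7 CPM per kilobase for CXCL8 in sh2, 32.2 in sh1 and 17.1 in shNC. For CCL5 it was 266 CPM per kilobase in the libraries labelled OVCAR3-DDP, against 5.39 in parental OVCAR3. CXCL1, CCL2 and CCL20 did not exceed 1.33 CPM in any of the 14 libraries, so their differences rest on few counts.

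**Figure D1:**
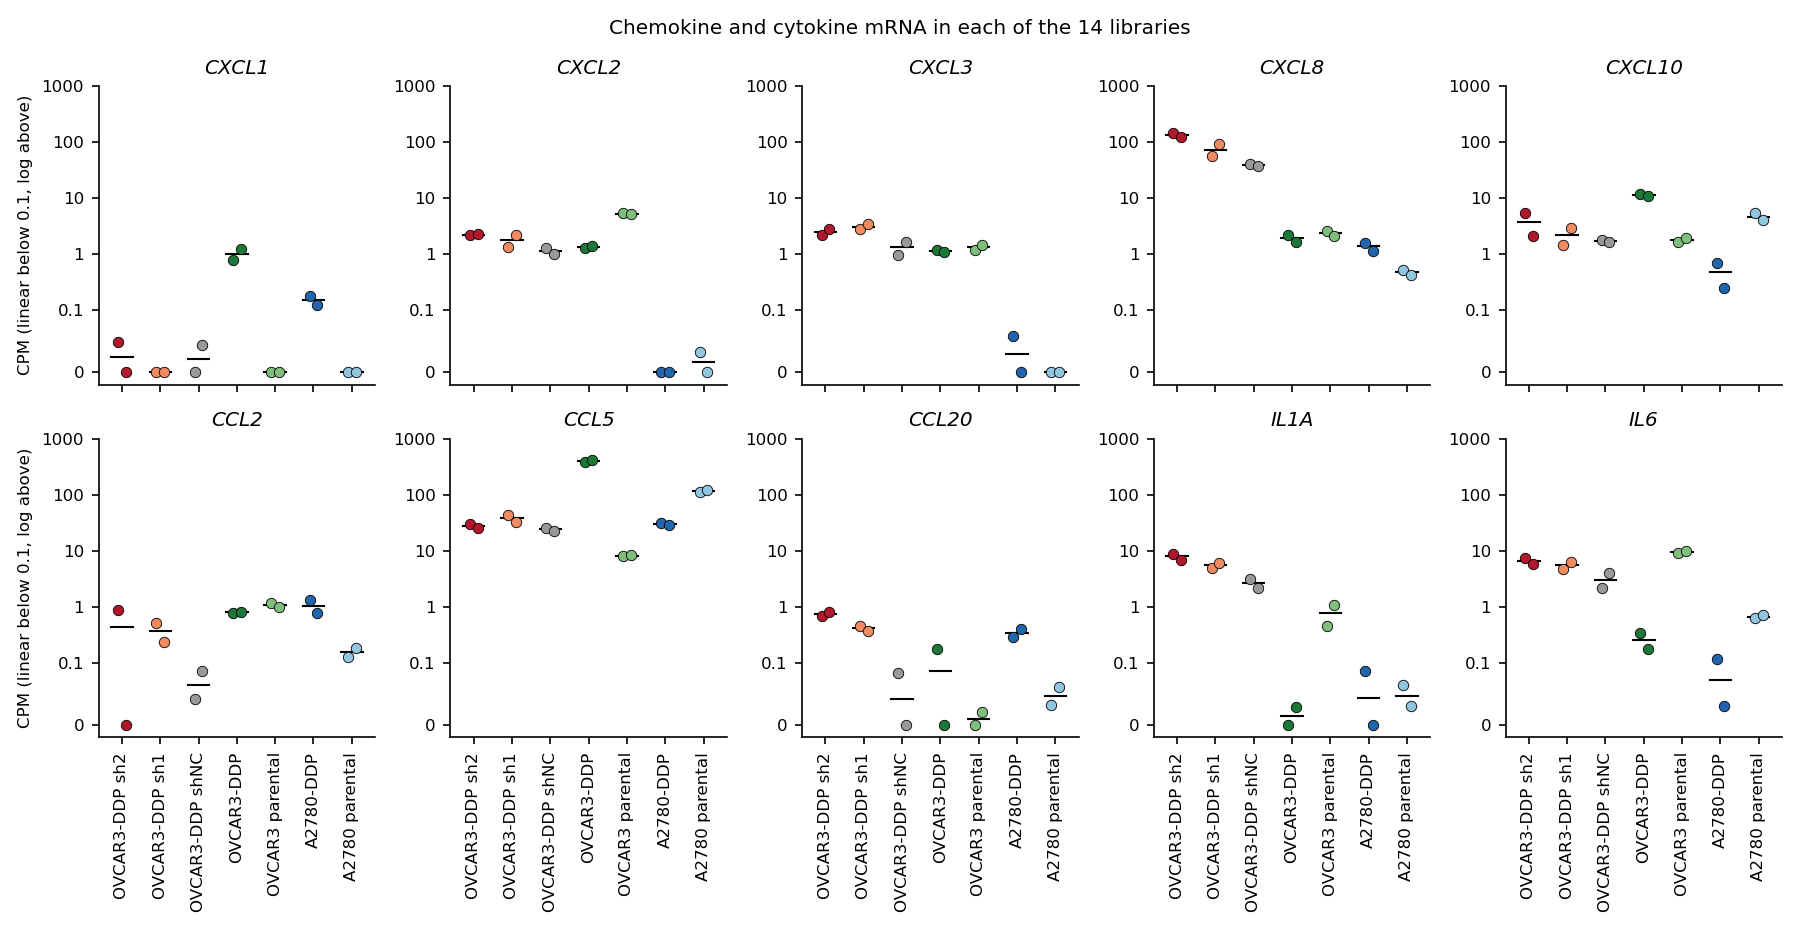
Level of each of the 10 genes in CPM in each library (points) with the group mean of 2 libraries (bar), on an axis that is linear below 0.1 CPM and logarithmic above. CXCL8 sits between 38.0 and 145 CPM in the 6 hairpin libraries and between 0.428 and 2.59 CPM in the other 8, and CCL5 is highest in the libraries labelled OVCAR3-DDP.

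The first comparison asked how the 10 genes stood in the libraries labelled OVCAR3-DDP against parental OVCAR3. CCL5, CXCL10 and CXCL1 rose and IL6, IL1A and CXCL2 fell, while CXCL3, CXCL8 and CCL2 did not pass and CCL20 was too low to test. These 6 of 9 tested members stand against a background of 68.5% of all genes called by edgeR's quasi-likelihood test at an adjusted p below 0.05 (33.3% higher and 35.2% lower), so the share of members is near that of all genes. The median log2 fold change was -0.45 over the tested members and -0.03 over all genes.

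CCL5 reached 393 and 412 CPM in both libraries labelled OVCAR3-DDP, against 8.0 and 8.31 CPM in parental OVCAR3. Both resistant libraries lay far above both parental ones, with a log2 fold change of 5.45 ± 0.12 (SE; edgeR adjusted p = 2.13e-13). CXCL10 had 11.98 and 10.7 CPM in libraries labelled OVCAR3-DDP, against 1.62 and 1.89 CPM in parental OVCAR3. The groups did not overlap, and the log2 fold change was 2.50 ± 0.29 (SE; edgeR adjusted p = 2.88e-06). CXCL1 had 27 and 43 counts in those resistant libraries and no count in either parental library. Against a floor of 3 counts over the parental group this was at least 28.7-fold higher.

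IL6 had 0.347 and 0.174 CPM in libraries labelled OVCAR3-DDP, against 9.03 and 9.79 CPM in parental OVCAR3. Both resistant libraries were below both parental ones, and IL6 fell by 5.33 on the log2 scale (SE 0.36; edgeR adjusted p = 1.27e-08). Genes on the other strand overlap 3 members, and the strand setting of the counting is not given in the sources used here, so reads of such pairs cannot be told apart. Over IL6, IL6-AS1 had 4 and 0 counts in the libraries labelled OVCAR3-DDP, against 34 and 44 in parental OVCAR3, and STEAP1B moved the other way, with 92 and 83 counts against 4 and 14. Over CXCL10, ART3 had 42 and 36 counts in A2780-DDP, against 63 and 58 in parental A2780, and no more than 6 in any OVCAR3 library. The antisense gene over CCL5 had at most 13 counts in any library. CXCL2 had 1.27 and 1.36 CPM in libraries labelled OVCAR3-DDP, against 5.35 and 5.11 CPM in parental OVCAR3. The groups did not overlap, and CXCL2 fell by 2.16 on the log2 scale (SE 0.32; edgeR adjusted p = 4.69e-05). IL1A had 0 and 1 counts in the libraries labelled OVCAR3-DDP, against 16 and 54 in parental OVCAR3. The ratio was 0.0176, with a 95% counting interval of 0.000439 to 0.101.

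With shNC in place of these libraries, CCL5 and IL6 differed less from parental OVCAR3 and IL1A turned round. Of 10 members tested, CXCL8, IL1A and CCL5 were higher in shNC than in parental OVCAR3 and CXCL2, CCL2 (on 3 counts, a ratio of 0.0607 with a 95% counting interval of 0.0123 to 0.183) and IL6 were lower, against a background of 51.4% of all genes (25% higher and 26.4% lower). CXCL8 had 40.0 and 38.0 CPM in shNC, against 2.59 and 2.08 CPM in parental OVCAR3. Its log2 fold change was 4.26 ± 0.20 (SE; edgeR adjusted p = 2.92e-15), where the libraries labelled OVCAR3-DDP gave -0.45. IL1A had 3.12 and 2.13 CPM in shNC, against 0.446 and 1.1 CPM in parental OVCAR3, a log2 fold change of 1.91 (edgeR adjusted p = 0.000242) and so the opposite direction. CCL5 kept its direction at a log2 fold change of 1.77, IL6 at -1.42 and CXCL2 at -2.01, whereas CXCL10 gave 0.15 and did not pass (edgeR adjusted p = 0.791).

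Set against one another, shNC and the libraries labelled OVCAR3-DDP differed in 7 of 10 members, against a background of 69.6% of all genes (32.8% higher and 36.7% lower). CXCL8, IL1A and IL6 were higher in shNC, CXCL8 and IL6 with log2 fold changes of 4.63 and 3.83. For IL1A, with 1 count in the libraries labelled OVCAR3-DDP, the ratio was 182 with a 95% counting interval of 32.0 to 7238. CXCL1, CXCL10, CCL2 and CCL5 were lower in shNC, CXCL10 by -2.43 and CCL5 by -3.75 on the log2 scale. CXCL1 had 0 and 1 counts in shNC, against 27 and 43 in the libraries labelled OVCAR3-DDP, a ratio of 0.0211 with a 95% counting interval of 0.000527 to 0.122. CCL2 had a ratio of 0.0806 with an interval of 0.0161 to 0.248, and it lost its call without shNC replicate 1 (edgeR adjusted p = 0.058).

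In A2780 the same question gave another set of directions. CXCL8, CCL2 and CXCL1 rose and CXCL10, CCL5 and IL6 fell in A2780-DDP, so 6 of 9 tested members were called, against a background of 35.4% of all genes (18.1% higher and 17.3% lower). CXCL2, CXCL3 and IL1A had at most 3 counts in either A2780 group and did not pass. The median log2 fold change was -0.07 over the tested members and 0 over all genes.

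CXCL10 had 0.696 and 0.244 CPM in A2780-DDP, against 5.32 and 4.0 CPM in parental A2780. The groups did not overlap, and CXCL10 fell by 3.28 on the log2 scale (SE 0.36; edgeR adjusted p = 7.22e-06). CCL5 had 31.7 and 28.99 CPM in A2780-DDP, against 110.4 and 121 CPM in parental A2780. Both resistant libraries were lower, and CCL5 fell by 1.92 on the log2 scale (SE 0.10; edgeR adjusted p = 4.39e-09). IL6 had 4 and 1 counts in A2780-DDP, against 20 and 23 in parental A2780. It fell by 3.11 on the log2 scale (SE 0.57; edgeR adjusted p = 0.000717).

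CCL2 had 1.33 and 0.762 CPM in A2780-DDP, against 0.128 and 0.183 CPM in parental A2780. Both resistant libraries were higher, with a log2 fold change of 2.73 ± 0.54 (SE; edgeR adjusted p = 0.00135). CXCL8 had 1.59 and 1.13 CPM in A2780-DDP, against 0.513 and 0.428 CPM in parental A2780. The groups did not overlap at a log2 fold change of 1.54 ± 0.39 (SE; edgeR adjusted p = 0.0071), but the call was lost without parental replicate 2 (adjusted p = 0.052) or A2780-DDP replicate 1 (adjusted p = 0.0549). CXCL1 had 6 and 4 counts in A2780-DDP and none in parental A2780, at least 3.16-fold higher (edgeR adjusted p = 0.0276). That call was lost without either parental library or A2780-DDP replicate 1, with adjusted p up to 0.108. CCL20 was not tested here and had 10 and 13 counts in A2780-DDP, against 1 and 2 in parental A2780, a ratio of 7.28 with a 95% counting interval of 2.20 to 37.9.

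**Figure D2:**
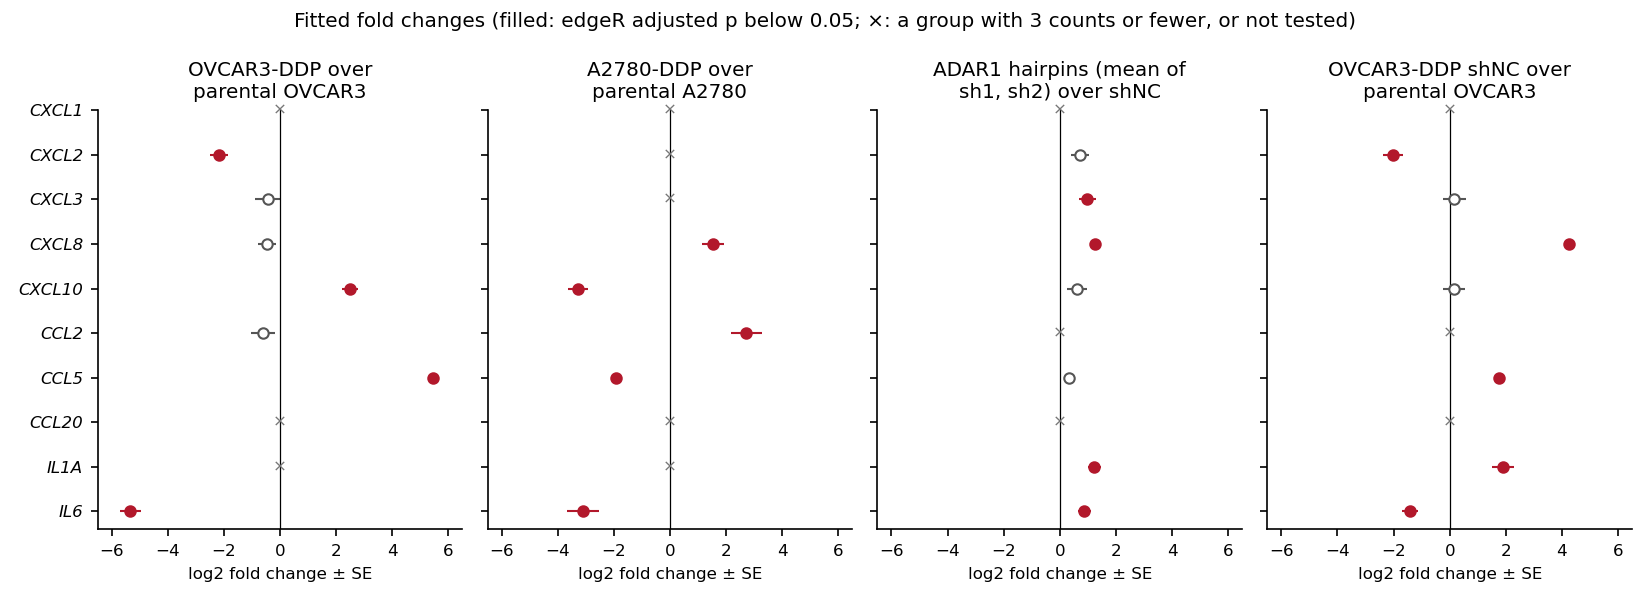
Log2 fold change ± SE of each gene from edgeR in 4 comparisons, filled where the adjusted p is below 0.05 and marked with a cross where a group had 3 counts or fewer or the gene was not tested. CCL5 and CXCL10 lie on opposite sides of 0 in the libraries labelled OVCAR3-DDP (5.45 and 2.50) and in A2780-DDP (-1.92 and -3.28), and no gene shown for the hairpins lies below 0.

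The response of the lines was compared directly as the A2780 change minus the OVCAR3 change. It differed for CXCL8, CXCL10, CCL2, CCL5 and IL1A, 5 of 9 tested members against a background of 53.7% of all genes (26.9% higher and 26.8% lower). CCL5 differed by -7.36 and CXCL10 by -5.78 on the log2 scale, CCL2 by 3.33 and CXCL8 by 1.99. For IL6, which was lower in both resistant groups, the difference of 2.22 did not pass by edgeR (adjusted p = 0.0528), while it passed by DESeq2 (0.0339), by limma-voom (0.0298) and without OVCAR3-DDP replicate 1 (0.0334) or A2780-DDP replicate 2 (0.0270). Over its alternatives with the libraries labelled OVCAR3-DDP the adjusted p reached 0.729, without A2780-DDP replicate 1. IL1A differed by 5.53 (edgeR adjusted p = 0.0392), but it had at most 3 counts in each A2780 group and lost the call in 5 of 8 fits without a library. With shNC in place of the libraries labelled OVCAR3-DDP, CCL5 differed by -3.66, CXCL10 by -3.40 and CCL2, on 3 counts in shNC, by 6.54. CXCL8 then turned to -2.70 (edgeR adjusted p = 5.05e-05) and IL1A to -1.95 (edgeR adjusted p = 0.32). IL6 turned to -1.65 (edgeR adjusted p = 0.0724) and CXCL1 to 2.37. Neither was called by edgeR with all libraries, whichever OVCAR3 group was used. With the libraries labelled OVCAR3-DDP, limma-voom called CXCL1 at -2.84 (adjusted p = 0.0311), where neither parental group had a count.

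The parental lines differed in 8 of 9 tested members, against a background of 65.9% of all genes (32.3% higher and 33.6% lower). Parental OVCAR3 had more CXCL2, CXCL3, CXCL8, CCL2, IL1A and IL6, and parental A2780 had more CXCL10 and CCL5. CXCL2 had 192 and 251 counts in parental OVCAR3, against 1 and 0 in parental A2780, a ratio of 333 with a 95% counting interval of 59.5 to 13188. CXCL3 had 43 and 72 counts in parental OVCAR3 and none in parental A2780, at least 28.8-fold higher. CCL5 was lower in parental OVCAR3 by -3.78 on the log2 scale, with the per-library values given above. IL1A, with 3 counts in parental A2780, had a ratio of 17.5 with an interval of 5.76 to 87.1, and it lost its call without parental OVCAR3 replicate 2 (edgeR adjusted p = 0.053).

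The hairpins asked how the genes stood where ADAR1 was reduced in resistant OVCAR3 cells. ADAR itself had 116 and 114 CPM in sh2, 289 and 254 CPM in sh1 and 447 and 399 CPM in shNC. It was lower by -1.99 in sh2 and -0.71 in sh1 on the log2 scale, and sh2 was lower than sh1 by -1.27. CXCL8, IL1A, IL6, CXCL3 and CCL20 rose in the mean of sh1 and sh2 and no tested member fell. These 5 of 9 tested members stand against a background of 11.7% of all genes (5.78% higher and 5.88% lower). The number called fell without either shNC library or either sh2 library and rose without either sh1 library. The number of all genes called also moved with the library left out. Each such fit leaves 1 library in a group, so neither number is read as a result. Over these fits the log2 fold change ran from 1.06 to 1.39 for CXCL8 and from 1.00 to 1.52 for IL1A. It ran from 0.50 to 1.38 for IL6, 0.64 to 1.43 for CXCL3 and, on few counts, 2.58 to 6.64 for CCL20. With all libraries the median log2 fold change was 0.99 over the tested members and 0.00 over all genes. CXCL1, with 1 count in 4 hairpin libraries and 1 in shNC, was not tested.

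CXCL8 had 145 and 122 CPM in sh2, 56.0 and 90.7 CPM in sh1 and 40.0 and 38.0 CPM in shNC. All 4 ADAR1 hairpin libraries lay above both shNC libraries, and both sh2 libraries lay above both sh1 libraries. The log2 fold change of the mean was 1.25 ± 0.15 (SE; edgeR adjusted p = 6.71e-05), and it passed in all alternatives run. Separately it was 1.67 ± 0.17 for sh2 and 0.83 ± 0.17 for sh1, and the difference between the hairpins, 0.84, passed (edgeR adjusted p = 0.00989). Without sh2 replicate 1 that difference had an adjusted p of 0.124, and without shNC replicate 2 the sh1 call had one of 0.0622.

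IL1A had 8.91 and 6.98 CPM in sh2, 5.01 and 6.03 CPM in sh1 and 3.12 and 2.13 CPM in shNC. The 4 ADAR1 hairpin libraries were above both controls, with a log2 fold change of the mean of 1.24 ± 0.22 (SE; edgeR adjusted p = 0.00189). Without shNC replicate 2 the adjusted p was 0.0646. IL6 had 7.34 and 5.92 CPM in sh2, 4.67 and 6.35 CPM in sh1 and 2.19 and 3.96 CPM in shNC. The groups did not overlap, at a log2 fold change of 0.88 ± 0.24 (SE; edgeR adjusted p = 0.0243). Without shNC replicate 1 the log2 fold change was 0.50 and the adjusted p 0.402, and without sh2 replicate 1 the adjusted p was 0.066.

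CXCL3 had 2.15 and 2.84 CPM in sh2, 2.74 and 3.44 CPM in sh1 and 0.971 and 1.65 CPM in shNC. All 4 were above the controls at a log2 fold change of 0.99 ± 0.30 (SE; edgeR adjusted p = 0.0381), but DESeq2 (0.0533), limma-voom (0.0523) and a fit of all 14 libraries (0.0916) missed the threshold. So did the fits without shNC replicate 1 (0.423), shNC replicate 2 (0.0663) or sh2 replicate 2 (0.089). CCL20 had 14 and 19 counts in sh2, 11 and 8 in sh1 and 2 and 0 in shNC. The ratio of the 4 libraries to shNC was 13.6, with a 95% counting interval of 3.59 to 116 (edgeR adjusted p = 0.0228), and the call was lost without either shNC library or either sh2 library, with adjusted p up to 0.275.

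CXCL2 had 2.20 and 2.24 CPM in sh2, 1.35 and 2.21 CPM in sh1 and 1.27 and 1.00 CPM in shNC. All 4 were above the controls, yet the log2 fold change of 0.71 did not pass (edgeR adjusted p = 0.162). CXCL10 had 5.29 and 2.07 CPM in sh2, 1.43 and 2.87 CPM in sh1 and 1.77 and 1.65 CPM in shNC, overlapped between groups and did not pass (edgeR adjusted p = 0.275). Without sh1 replicate 1 both passed (0.0439 for CXCL2 and 0.0361 for CXCL10). CCL5 had 30.3 and 25.8 CPM in sh2, 43.4 and 32.7 CPM in sh1 and 25.7 and 23.1 CPM in shNC. Its mean change of 0.33 did not pass (edgeR adjusted p = 0.119), and the separate change of 0.57 in sh1 did (edgeR adjusted p = 0.0467). That sh1 call was lost without either shNC library or sh1 replicate 1. It was also lost with upper-quartile scaling (edgeR adjusted p = 0.0552) and in a fit of sh1 and shNC alone (0.066). With all libraries the hairpins differed in CCL5 by -0.47 without passing (edgeR adjusted p = 0.119). Without sh1 replicate 2 the mean change and the difference between the hairpins were both larger, at 0.42 and -0.67. CCL2 had 18 and 0 counts in sh2, 12 and 5 in sh1 and 1 and 2 in shNC, and did not pass, at a ratio of 6.12 with a 95% counting interval of 1.93 to 31.1.

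One hairpin at a time, sh2 gave 4 calls among the 9 tested members, CXCL8, IL1A, IL6 and CCL20, against a background of 14% of all genes (7.04% higher and 6.94% lower). The hairpin sh1 gave 3 calls, CXCL8, CCL5 and IL1A, against 3.5% (1.79% higher and 1.72% lower). Between sh2 and sh1 CXCL8 was the single member called, against 1.82% (0.656% higher and 1.17% lower). The number of calls for sh2, for sh1 and between the hairpins was lower in some fits without a library. For sh1 and between the hairpins it was higher in others. The number of all genes called moved as well, and each such fit leaves 1 library in a group. The IL1A call in sh1 was lost without shNC replicate 1 (edgeR adjusted p = 0.053) or shNC replicate 2 (0.366) and in the fit of all 14 libraries (0.141). The IL6 call in sh2 was lost without shNC replicate 1 (0.271) or sh2 replicate 1 (0.178). The CCL20 call in sh2 was lost without shNC replicate 2 (0.16), sh2 replicate 1 (0.0847) or sh2 replicate 2 (0.0676).

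**Figure D3:**
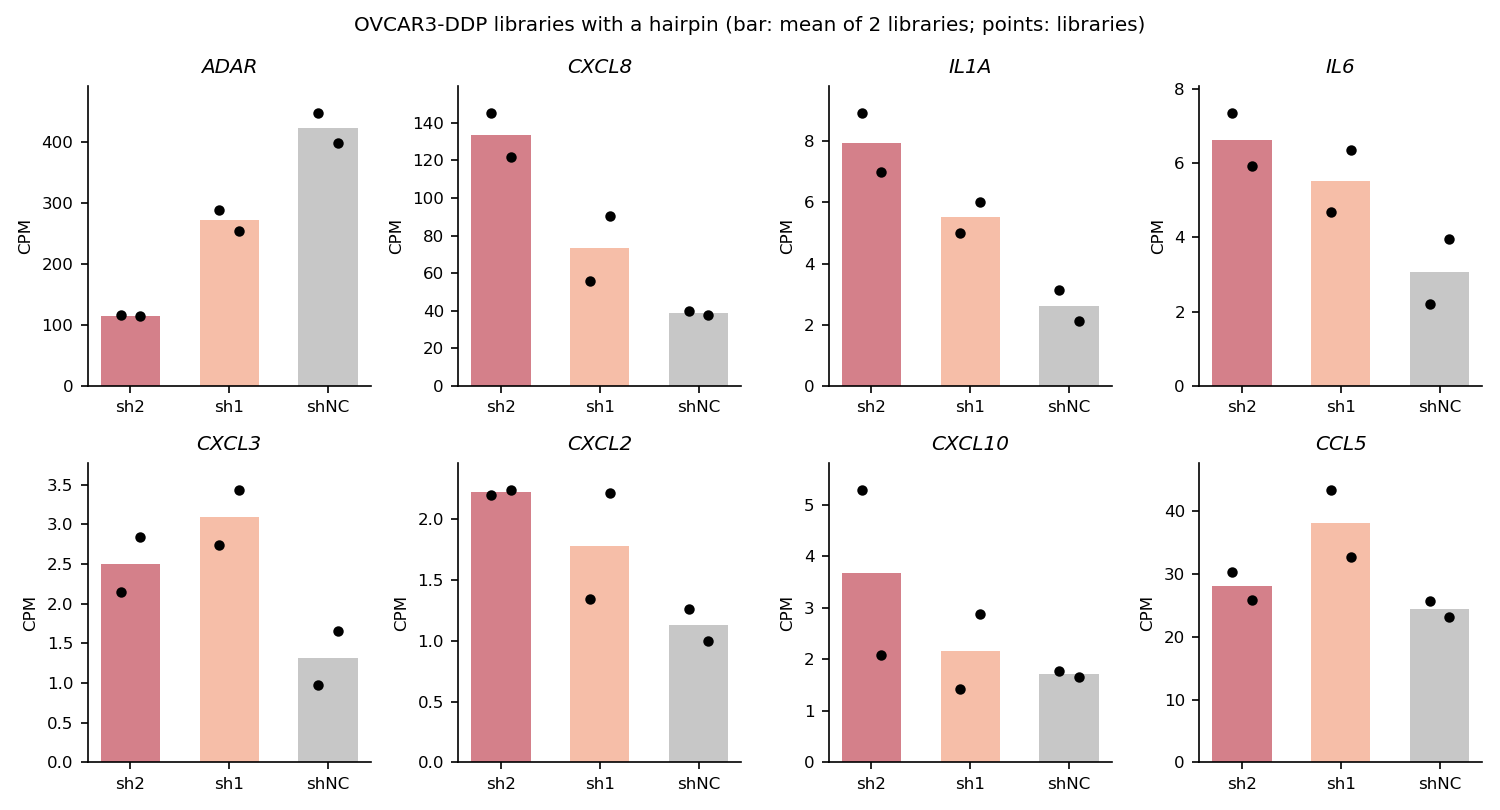
Level in CPM of ADAR and 7 of the genes in sh2, sh1 and shNC (bar, mean of 2 libraries; points, libraries; axes start at 0). ADAR is lowest and CXCL8 highest in sh2, with sh1 between sh2 and shNC for both, and CXCL10 spreads from 2.07 to 5.29 CPM within sh2.

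CXCL1, CXCL2 and CXCL3 share sequence, and of 50-base stretches in their transcripts 4.81%, 12.5% and 6.01% occur in another of the 3, so reads could be split between them. Their counts were also summed into 1 feature. The sum fell in the libraries labelled OVCAR3-DDP by 1.10 on the log2 scale (edgeR adjusted p = 0.00208), was lower in shNC than in parental OVCAR3 by -1.22 (edgeR adjusted p = 0.00059) and rose with the hairpins at a log2 fold change of 0.87 (edgeR adjusted p = 0.0204). In A2780-DDP it was 3.26 (edgeR adjusted p = 0.0189), on 12 counts against 1. The make-up of the sum differed: CXCL1 made up 24.3% and 33.6% of it in the libraries labelled OVCAR3-DDP and 0% in both parental OVCAR3 libraries.

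Ordering the 7 groups by mean level gave 60 neighbouring pairs over the 10 genes, of which 19 differed by edgeR. The order came from the same libraries as the tests, and no such count was made over all genes. The 19 pairs are therefore not read as a trait of the members. CXCL8 and CCL5 each had 4 differing neighbours of 6. For CXCL8 the order was sh2, sh1, shNC, parental OVCAR3, the libraries labelled OVCAR3-DDP, A2780-DDP and parental A2780, and the 2 pairs among parental OVCAR3, the libraries labelled OVCAR3-DDP and A2780-DDP did not differ beyond their spread. For CCL5 the libraries labelled OVCAR3-DDP came first and parental OVCAR3 last, and neither A2780-DDP and sh2 nor sh2 and shNC, neighbours in that order, differed beyond their spread. CCL2 and CCL20 had no neighbouring pair that differed. For IL6, parental OVCAR3 came first, and it, sh2, sh1 and shNC formed a run in which no neighbours differed, although shNC and parental OVCAR3 at its ends did.

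Some members followed one another over the libraries. CXCL8 and IL1A had a Pearson correlation of 0.938 in log2 CPM over 14 libraries, CXCL2 and CXCL3 of 0.925, and IL1A and IL6 of 0.844. CXCL1 and IL6 had the lowest, -0.656. Among 15264 other genes at 5 CPM or more in some group, those most like CXCL8 were UGGT2, PBX4 and ATG14 (0.987 to 0.989), and those most like IL1A were GRHL1, USP3 and LINC01322 (0.984 to 0.992). Those most like CCL5 were GPC6, UNC5B and TMEM8B (0.966 to 0.981), and for CXCL10 they were RNF125, NCMAP-DT and SLITRK5 (0.932 to 0.948). For IL6 they were GNG11, SH3TC1 and LIMA1 (0.978 to 0.985). The points share cell line and hairpin status, so these values mostly describe differences between groups.

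Genes around the members in their pathways were read from lists. With the ADAR1 hairpins the shares of all genes called were 5.78% higher and 5.88% lower. Counts of 1 or 2 genes in a list are not read here as a result about that list. Of 19 NF-kB genes 8 rose and none fell, with a median log2 fold change of 0.31 against 0.00 over all genes. TRAF1, a signalling adaptor downstream of TNF receptors, BIRC3, an inhibitor of apoptosis, and RELB, an NF-kB subunit, rose by 1.02, 0.94 and 0.67 on the log2 scale. BIRC3 averaged 199 ± 42.9 CPM over the 4 ADAR1 hairpin libraries and 96.4 ± 2.31 CPM in its 2 shNC libraries (SD). Of 12 tested interferon induction genes 4 rose and 1 fell, with IFIH1, a sensor of double-stranded RNA, at 0.95, IFNL1 at 0.82, IRF1 at 0.68 and MAVS, the adaptor of that sensor, at -0.50. CXCL11, the other CXCR3 ligand that could be tested, rose at 1.15. Of 8 other inflammatory cytokines 3 rose, IL7 at 1.28, CSF1 at 0.72 and IL15 at 0.53. Of 12 tested IL-6 family and receptor genes 1 rose, IL6ST at 0.48, and 2 fell, EBI3 at -0.58 and LIF at -0.37. Of 7 tested chemokine receptor genes 1 fell, CXCR4 at -0.56, and none of 6 tested IL-1 family and receptor genes was called by edgeR. None of 9 genes for the decay of cytokine messenger RNA was called, and 1 of 10 C/EBP and AP-1 genes rose, ATF3 at 0.75, while FOS fell.

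Of the same lists, NF-kB, interferon induction, the IL-6 family, chemokine receptors, and C/EBP and AP-1 are given for the resistant groups. The shares of all genes called were those given above: 18.1% higher and 17.3% lower in A2780-DDP, and 33.3% and 35.2% in the libraries labelled OVCAR3-DDP. For shNC against parental OVCAR3 they were 25% and 26.4%. In A2780-DDP 13 of 19 NF-kB genes rose and 2 fell, with BIRC3 at 3.75, RELB at 1.25, NFKBIA at 1.24 and IKBKB at -0.48. In the libraries labelled OVCAR3-DDP 7 rose and 7 fell, shares near those of all genes, with TNFAIP3 at 2.17 and BIRC3 at -4.41. With shNC in their place 13 were higher and 3 lower, with TNFAIP3 at 3.13 and NFKBIB at -1.24. Interferon induction genes gave 6 higher and 3 lower of 14 in the libraries labelled OVCAR3-DDP, with IRF7 at 4.78, IFNB1 at 4.21 and RIGI at 3.63, and IRF1 at -1.19 and EIF2AK2 at -1.16. With shNC they gave 9 higher and 1 lower, RIGI at 3.74 and IRF9 at -3.24. In A2780-DDP they gave 4 higher and 4 lower, with IFNL3 at 1.52, IFNL2 at 1.11 and IRF1 at 0.91, and IFNL1 at -2.26, IFNB1 at -1.51 and MAVS at -0.92.

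Of 13 IL-6 family and receptor genes 10 fell and 3 rose in the libraries labelled OVCAR3-DDP, at a median log2 fold change of -1.32, with OSMR at -7.11, LIFR at -3.40 and CTF1 at 7.35. With shNC in their place the median was 0.76, with 8 higher and 2 lower, LIF at 2.00 and LIFR at -1.07. In A2780-DDP 6 rose and 2 fell, EBI3 at 3.45, IL11 at 2.46 and STAT3 at -0.76. Of 12 tested chemokine receptor genes 6 fell and 3 rose in the libraries labelled OVCAR3-DDP, CXCR4 at -5.24 and ACKR4 at 2.18. With shNC 5 were higher and 4 lower, CXCR4 at 2.04 and so the opposite direction. In A2780-DDP 4 fell and 3 rose, CCR10 at 0.40, and CCR1 had 1 count, against 3173 in parental A2780. Of 10 C/EBP and AP-1 genes 4 rose and 5 fell in the libraries labelled OVCAR3-DDP, at a median log2 fold change of -0.86. With shNC 9 were higher and 1 lower, at a median of 1.54. In A2780-DDP 5 rose and 4 fell, at a median of 0.31. None of the other CXC chemokine genes of the chromosome 4 cluster, CXCL5, CXCL6, PPBP, PF4 and PF4V1, reached the level for testing.

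**Figure D4:**
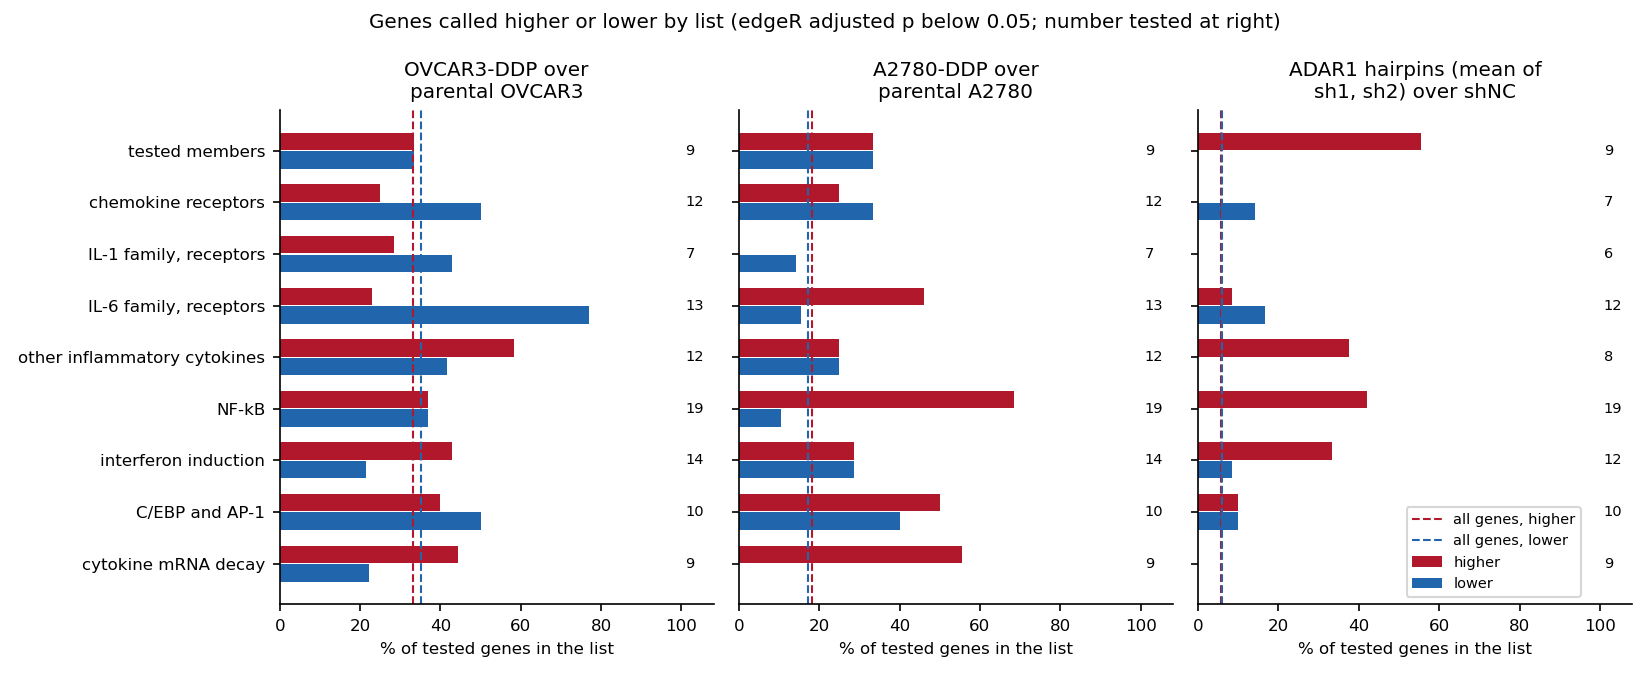
Share of tested genes called higher or lower by edgeR in each list, with the number tested at the right and dashed lines for the share over all genes, in 3 comparisons. With the hairpins 8 of 19 NF-kB genes and 5 of 9 tested members were higher, against 5.78% of all genes.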

How the data were processed

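Gene expression was measured in 14 libraries. The values are gene counts as deposited by the authors, made with STAR 2.7.8a on GRCh38.p13 and HTSeq 2.0.3, per the submitters' processing notes; which annotation release and strand setting were used is not given in the sources used here. Nothing was realigned. Of 62757 genes per file, 58318 stood in GENCODE 29, which gave coordinates and exon lengths. The 5 summary lines of each file were left out of totals; reads on no gene were 48.7% to 50.0% of reads and reads with more than 1 alignment 2.36% to 4.99%.

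Genes were tested with edgeR 4.0.16 (R 4.3.3): quasi-likelihood F-test with robust spread, TMM, filterByExpr (count of at least 10), and p-values adjusted by Benjamini-Hochberg over all genes, called below 0.05. The 8 libraries without a hairpin formed 1 fit (23031 genes), the 6 with one another (19044), and all 14 the last (24193) for shNC against OVCAR3 groups and for neighbouring groups. SE is the log2 fold change over the square root of F. Where a group held no count, a fold is bounded by taking 3 counts for the group. Where a group held 1 to 3 counts and a fold is printed, the ratio is given with a 95% exact interval, which covers counting error only. The line difference, the summed feature and the alternative settings are instead given as fitted log2 values, also where a group held 3 counts or fewer. Likeness is Pearson's correlation of log2 CPM (prior count 2), with the 3 highest genes named. From each pathway list up to 3 called genes per direction, by fold change and at 1 CPM or more, could be named.

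The members, lists, markers and tests were chosen with earlier results of these data known. Alternatives were DESeq2 1.42.0 size factors and its Wald test, upper-quartile scaling, no filter, a mean of 5 CPM or more, limma-voom (limma 3.58.1), other sets of libraries, leaving out each library, and a block for the replicate number. Using shNC in place of the libraries labelled OVCAR3-DDP, and the shorter promoter window, were added after seeing the data. No replicate duplicated another: the chi-square per gene between replicates was 3.88 to 31.5. The test was run on simulated counts before use. Changes were put only into genes at a mean of 5 CPM or more. Calls on members below that level were therefore not covered.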

Additional observations from a re-analysis of the deposited data

Results flagged for a closer look

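The change in the resistant cells differed between the lines by an interaction test for 5 of 9 tested members. The background was 53.7% of all genes, so the share of members is near that of all genes. Given as the A2780 change minus the OVCAR3 change on the log2 scale, the difference was -7.36 for CCL5, -5.78 for CXCL10, 3.33 for CCL2, 1.99 for CXCL8 and 5.53 for IL1A. IL1A had at most 3 counts in each A2780 group, and its difference ran from 1.68 to 7.79 without a library. The OVCAR3 side rests on the libraries labelled OVCAR3-DDP. There 4 of 12 epithelial markers reached 1 CPM, as in both A2780 groups, against 10 in shNC and in parental OVCAR3. The part of this in the difference was not tested. With shNC in their place the direction held for CCL5, CXCL10 and CCL2 and not for CXCL8 and IL1A.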

How the results depend on the processing

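The filter at a mean of 5 CPM or more left few members to test. It called 1 of 1 tested in the libraries labelled OVCAR3-DDP, in A2780-DDP, in the line difference and between the parental lines. With the mean of the hairpins it called 3 of 4. For shNC against the libraries labelled OVCAR3-DDP and against parental OVCAR3 it called 2 of 2. It also left fewer genes to test. In the libraries labelled OVCAR3-DDP it called 10266 of 13172 genes (15778 of 23031 without it). Between the parental lines it called 9989 of 13172 (15173 of 23031). For shNC against the libraries labelled OVCAR3-DDP it called 10342 of 13044 (16831 of 24193). Of neighbouring pairs it called 8 of 12 (19 of 60). DESeq2's Wald test called 3 members with the mean of the hairpins and 646 genes between sh2 and sh1 (347 by edgeR). With no filter 1039 of 35123 genes were called for sh1 (667 of 19044 by the main fit) and 684 of 35123 between sh2 and sh1. A fit of the compared groups alone called 440 of 18453 genes for sh1 and 5869 of 18480 for sh2 (2662 of 19044). Between sh2 and sh1 that fit called 196 of 18484. Leaving out each library in turn gave 2 to 7 members and 297 to 6386 genes with the mean of the hairpins, 0 to 4 members and 86 to 4616 genes for sh1, 2 to 4 members and 299 to 1334 genes for sh2, and 0 to 3 members and 50 to 4442 genes between sh2 and sh1. In the line difference, shNC in place of the libraries labelled OVCAR3-DDP turned CXCL8 to -2.70, IL1A to -1.95, IL6 to -1.65 and CXCL1 to 2.37. Other changes of sign were in values not called as reported: CXCL2 in the line difference (DESeq2 0.63, limma-voom 1.29, without a library -1.25 to 2.09), CCL2 between sh2 and sh1 (limma-voom -1.60, replicate block -0.13, without a library -6.10 to 1.20) and CCL20 for shNC against the libraries labelled OVCAR3-DDP (limma-voom 0.17, without a library -4.39 to 3.64). Leaving out each library gave ranges across 0 for IL1A in A2780-DDP (-3.86 to 0.92), CCL2 with the mean of the hairpins (-0.68 to 3.02) and in sh2 (-3.74 to 3.56), CCL5 in sh2 (-0.029 to 0.21), CXCL10 in sh1 (-0.33 to 0.64) and between the hairpins (-0.071 to 1.31), CXCL2 between the hairpins (-0.0036 to 0.69) and for shNC against the libraries labelled OVCAR3-DDP (-0.097 to 0.21), and, for shNC against parental OVCAR3, CCL20 (-1.95 to 3.60) and CXCL3 (-0.29 to 0.50). Beyond the smaller number of members tested, the cause was not tested. Among single genes, 1110 values held their direction and call, 40 lost the call, 17 gained it and 25 changed sign.

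Replicate numbers did not pair the samples: deviations of same-numbered libraries correlated between -0.077 and 0.143 over 21 pairs of groups. A replicate block gave 5 members called with the mean of the hairpins, 6 in the libraries labelled OVCAR3-DDP and 6 in A2780-DDP, as without it, and 2112 genes with the mean of the hairpins. It changed 1 member's call, CXCL3 in sh1, at a log2 fold change of 1.17 (edgeR adjusted p = 0.0353). With 2 libraries per group, members under 1 CPM rest on few counts, and differences in them may not be detectable at this depth.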
